A study of Mus musculus with 40 samples.

Results

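The CpGs described here stand nearly alone in a reduced representation bisulfite sequencing (RRBS) table of mouse liver. They were chosen by position and coverage, with no use of methylation values: the genome was cut into bins of 1000 bp, bins in which the table lists only 1 or 2 CpG cytosines were kept, and a cytosine had to carry a total read count in at least 36 of the 40 mice. Each listed cytosine is counted on its own strand. The rule found 39246 CpGs in 28314 bins, which is 15.0% of the 262317 CpGs that passed the same coverage filter and part of 400298 listed in all. Of these, 15054 were the only CpG listed in their bin and 24192 shared it with another.

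The livers came from 40 male C57BL/6 mice (C57BL/6J in the study) of 9 weeks, with 10 mice in each of 4 groups named here by the diet of the dam and then by the post-weaning diet of the offspring: LF/LF, LF/HF, HF/LF and HF/HF, where LF is low fat and HF is high fat. Each mouse is 1 library of DNA from whole liver, so a methylation level averages over all liver cell types. A change in the share of a cell type and a change within it cannot be told apart. In the study males of a cage were split between both post-weaning diets, so mice of the same group and of different groups may share a dam, and the labels used here do not give the litters. The tests treat each mouse as independent, so that p-values for maternal diet may be too small. Those for post-weaning diet, where litter mates may lie on both sides, may be off in either direction. The question was whether maternal diet and post-weaning diet left differences in DNA methylation at these CpGs.

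As background, CpG methylation is set by DNA methyltransferases and is high over most of the mouse genome. CpG-rich islands at gene starts are usually kept free of it. CpGs away from islands are usually methylated, and lower levels among them often lie at enhancers and other bound regulatory sites. RRBS starts with the enzyme MspI, which cuts at CCGG, so it samples islands densely and the rest of the genome as scattered CpGs next to a cut.

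Reads at the isolated CpGs summed to 294526 to 1926420 per mouse, with a median of 857230. A mouse lacked a total at 0 to 42.8% of them, and the median CpG had a median depth of 22 reads, the same as in denser bins. Only 5670 of the isolated CpGs had a total in all 40 mice, and means per mouse were taken over these. A level from 10 reads moves in steps of 10 percentage points, and counting error is given beside the spread between mice below.

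The sequences below show what the group is made of. They are 4 of the 5 deepest single CpGs below 20% that lie more than 10000 bp from a transcription start, 3 of the 5 deepest single CpGs at 95% or more, and CpGs near hepatocyte genes. Each line gives 61 bases of the reference (mm9, NCBIM37), 5′ to 3′ on the strand of the measured cytosine, with the measured CpG in capitals.
chr19:3195808-3195868, minus strand, intergenic, 1.35% methylated: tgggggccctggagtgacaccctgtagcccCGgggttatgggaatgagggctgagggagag
chr8:127707833-127707893, plus strand, intron of Disc1, 5.10%: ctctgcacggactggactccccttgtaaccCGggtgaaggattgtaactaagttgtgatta
chr4:135384611-135384671, plus strand, intergenic, 8.52%: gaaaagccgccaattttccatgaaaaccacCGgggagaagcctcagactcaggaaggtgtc
chr9:110634883-110634943, plus strand, intron of Pth1r, 13.5%: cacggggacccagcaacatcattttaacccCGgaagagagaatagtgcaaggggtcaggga
chr17:13377550-13377610, minus strand, intergenic, 96.4%: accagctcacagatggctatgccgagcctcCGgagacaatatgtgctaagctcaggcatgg
chr7:12598935-12598995, plus strand, intergenic, 96.4%: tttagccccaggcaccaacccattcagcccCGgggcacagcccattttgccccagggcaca
chr12:3015068-3015128, minus strand, intergenic, 95.8%: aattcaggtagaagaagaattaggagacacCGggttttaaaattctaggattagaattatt
chr2:163385154-163385214, plus strand, intron of Hnf4a, 20.6%: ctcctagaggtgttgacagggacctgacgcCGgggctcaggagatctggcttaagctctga
chr11:108205987-108206047, minus strand, upstream of Apoh, 14.9%: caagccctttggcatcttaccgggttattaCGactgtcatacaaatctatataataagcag
In 8 of these 9 lines the measured CpG lies inside an MspI site, c before it and g after it, and is the first CpG of the read. In the Apoh line the MspI site is 10 bp away and the measured CpG is further in the read.

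The isolated CpGs were mostly methylated. The median level over the 39246 CpGs was 85.2% (quartiles 66.1% and 92.9%), and 23663 of them (60.3%) were at 80% or more, 12019 (30.6%) between 20% and 80% and 3564 (9.08%) below 20%. CpGs in bins of 3 to 9 listed rows had a median of 73.5%, with 32.6% of them below 20%, and those in bins of 10 or more had a median of 0.765%, with 92.6% below 20%. Over the CpGs with a total in all mice, the isolated CpGs averaged 73.5% ± 0.594 (SD, n = 40 mice), against 56.1% in bins of 3 to 9 rows and 9.48% in bins of 10 or more. Within a mouse the isolated CpGs were higher by 17.4 ± 0.268 and 63.97 ± 0.583 percentage points, with the same direction in 40 of 40 mice (two-sided sign-flip permutation test, p = 1e-05 for both, the smallest p these resamples can give). This p measures the spread between mice for fixed sets of CpGs, not the spread between CpGs. At the edges of the rule, CpGs in bins of 2 rows had a median of 85.0% and those in bins of 3 rows 84.3%. CpGs with a total in exactly 36 mice had a median of 85.5%, and those in 35 mice, just outside, 85.7%.

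**Figure D1:**
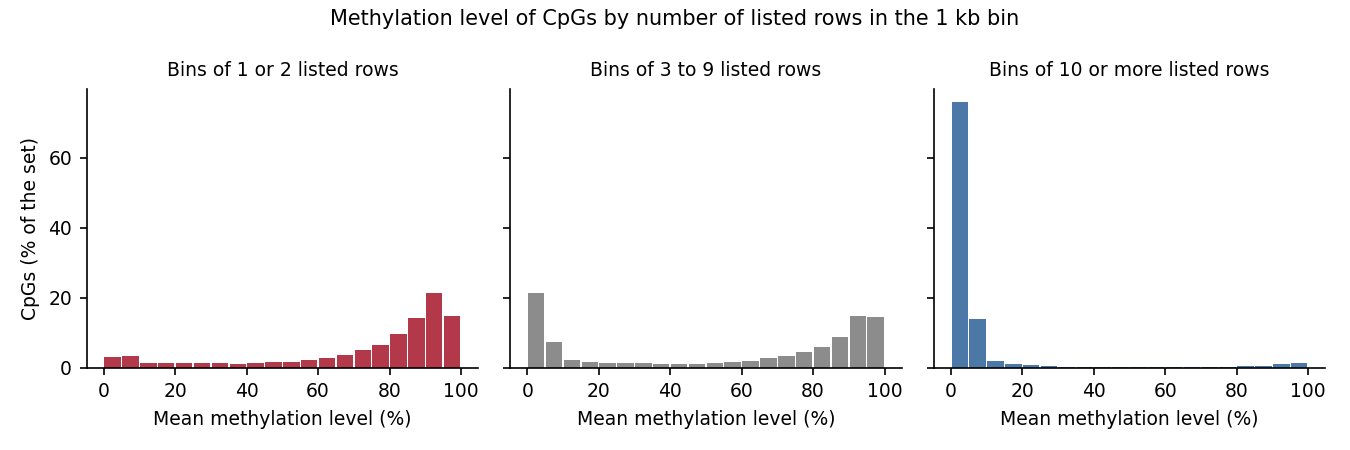
Distribution of the mean methylation level (x axis, percent, in steps of 5 points) of CpGs in bins of 1 or 2, 3 to 9 and 10 or more listed rows; the y axis is the percentage of each set of CpGs. The isolated CpGs pile up at high levels, with 60.3% at 80% or more, the bins of 3 to 9 have a low and a high peak, and in the bins of 10 or more 92.6% lie below 20%.

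Isolation in the table was not isolation in the genome. The 1000 bp bin of an isolated CpG held a median of 14 CpGs in the reference sequence (quartiles 10 and 18), against 21 in bins of 3 to 9 rows and 69 in bins of 10 or more, and a genome average of 8.34. Only 2693 of the 39202 CpGs on assembled chromosomes had no other CpG within 100 bp on either side. The bin held a median of 2 CCGG, the MspI site, against 3 and 9. On assembled chromosomes the isolated CpG was the CpG of the cut site itself in 78.05% of cases, against 41.5% and 21.7% in the denser bins. Of the CpGs alone in their bin, 98.1% were of this kind. All but 16 of the 39202 lay within 50 bases of the cut, the length of a read. The fragments had a median of 109 bp. GC content of the bin had a median of 47.6%, against 51% and 61.4%.

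The level was lower at high CpG density of the reference. The median was 86.6% where the bin held 5 or fewer reference CpGs (n = 1797), 86.9% at 6 to 10 (n = 9891), 85.6% at 11 to 20 (n = 20417), 79.9% at 21 to 40 (n = 6249) and 5.51% above 40 (n = 848). Within 100 bp on either side the picture was the same, with a median of 86.3% and 2.71% of CpGs below 20% where no other CpG was near, and 7.09% and 61.2% where the window held 10 or more. The 848 CpGs in bins of over 40 have at most 1 listed neighbour in the bin but lie in CpG-rich sequence, 62.0% of them in promoters. These are correlations across sites that share mice and reads, and are given as a description.

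Distance to a gene start went with the level in a like manner. Up to 500 bp from the nearest annotated transcription start the median was 27.3% and 47.4% of the CpGs were below 20%. Beyond that and up to 2000 bp the median was 78.2%, and in the 8951 CpGs farthest from a start it was 86.6%, with 2.69% below 20%. The median distance was 14471.5 bp, against 5873 bp in bins of 3 to 9 and 244 bp in bins of 10 or more.

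By annotation (GENCODE M1 on the same build), 44.1% of the isolated CpGs were intergenic, 38.1% intronic, 6.33% in coding exons and 2.81% in other exons, and 8.66% lay in promoters (from 1000 bp before a start to 500 bp after it). In bins of 10 or more rows 73.5% were promoter CpGs. Isolated promoter CpGs had a median of 40.3% with quartiles of 5.55% and 87.3%, so that 43.2% were below 20% and 32.6% at 80% or more. Promoter CpGs in bins of 10 or more had a median of 0.553%. Coding exons were the most methylated class at a median of 90.6%, ahead of introns at 86.2% and intergenic CpGs at 85.2%. Across the 40 mice the mean over promoter CpGs ranged from 43.8% to 46.2% (511 CpGs) and that over coding exons from 81.6% to 85.6% (331 CpGs), so these classes did not overlap in any mouse.

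**Figure D2:**
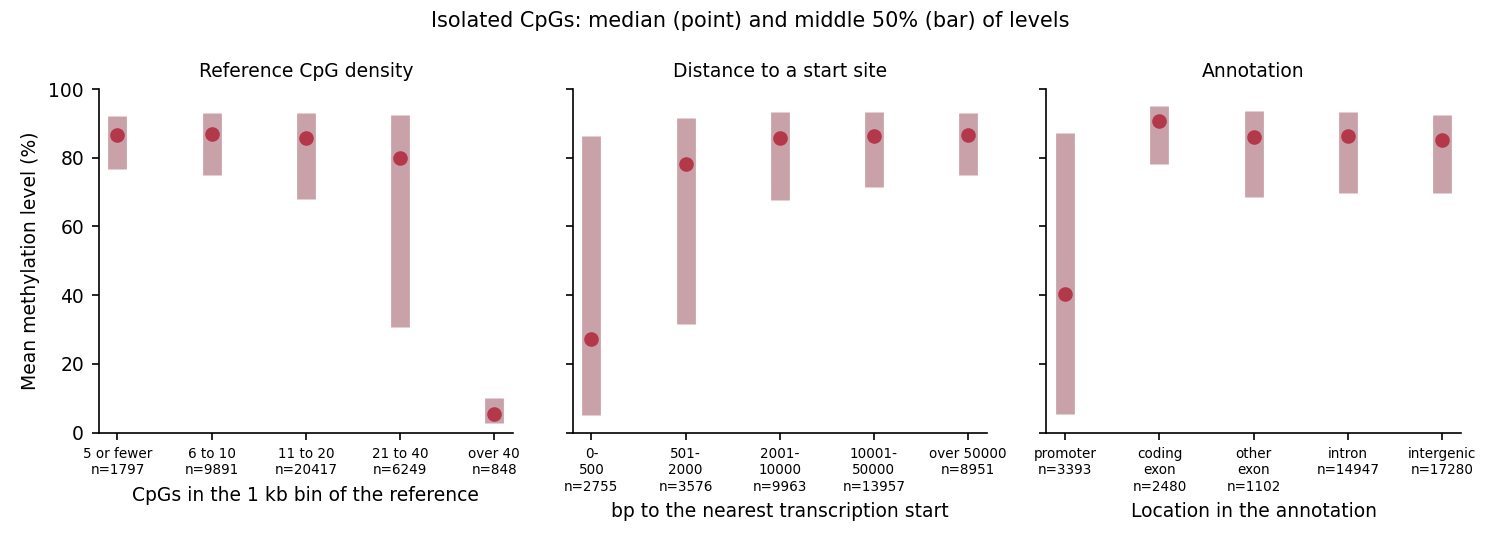
Methylation level of isolated CpGs (y axis, percent; point, median; bar, quartiles) by the number of CpGs in the 1 kb bin of the reference, by distance in bp to the nearest transcription start and by annotation, with the number of CpGs under each. Levels stay above 79% in the median up to 40 reference CpGs and drop to 5.51% above that, and promoters stand at 40.3% against 85.2% or more elsewhere.

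Far from annotated transcription starts a minority of isolated CpGs, some inside genes, was unmethylated or at middle levels. Among single CpGs more than 10000 bp from a start, the deepest of the low ones was chr19:3195838, with a lowest level of 0%, a median of 0% and a highest of 11.1% over 40 mice at a median of 36 reads. The CpG in an intron of Disc1, a scaffold protein of neurons and other cells, ran from 0% to 23.1% over 38 mice (mean 5.10%), and the intronic CpG of Pth1r, the receptor of parathyroid hormone, from 3.03% to 31.3% over 39 (mean 13.5%). At middle levels, 4 of the 5 deepest were an intergenic CpG at chr4:121820271 (73.1% ± 9.88, SD, n = 40), an intronic CpG of Ebf2, a transcription factor of fat and other mesenchymal cells (48.2% ± 11.5, n = 40), an intronic CpG of Grin2d, a subunit of the NMDA receptor (26.0% ± 9.66, n = 39), and chr1:173011906 near Fcgr3, an immunoglobulin receptor of macrophages (30.1% ± 9.07, n = 40). At any distance, the 5 deepest single CpGs at 95% or more ranged from 95.1% to 96.4%, and 4 of the 5 were intergenic. The examples were picked by their mean level over these mice, so the low and the high ones are apart by choice.

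Short letters of liver factor motifs were counted within 100 bp on either side of isolated CpGs more than 5000 bp from a start, on both strands. None of these strings contains another, and they were chosen with the levels known. AGGTCA, the half-site of nuclear receptors, occurred in 16.1% of windows with levels below 20% (n = 1164), 15.0% at 20% to 80% (n = 8742) and 10.9% at 80% or more (n = 18309), against 9.26% of all listed CpGs that passed the filter. AGGGGGC, core letters of the CTCF motif, occurred in 6.01%, 3.68% and 2.56%, against 6.23% of all. TGTTTAC of forkhead factors occurred in 3.09%, 3.12% and 1.81%, CAAAGTNCA of HNF4 in 1.12%, 1.16% and 0.694%, and GTTAATNA of HNF1 in 2.06%, 2.06% and 1.57%, against 1.51%, 0.602% and 0.811% of all. TTGCNNAA of C/EBP factors was at 6.62%, 8.20% and 7.67%, TGANTCA of AP-1 at 5.76%, 6.83% and 5.56% and TATAAA at 5.58%, 7.02% and 8.74%, against 4.995%, 3.31% and 3.43% of all. The GC content of the windows had medians of 53.96%, 50.99% and 49.5% in the 3 classes and 60.4% in all, and its part in these shares was not tested.

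Lists of genes were compared by the median level of their isolated CpGs. A CpG was counted to a gene if it lay in it or up to 2000 bp upstream. The list of hepatocyte genes had 22 isolated CpGs in 13 of its 47 genes, with a median of 36.1%, and 2 were below 20%, 14 at 20% to 80% and 6 at 80% or more, against a median of 85.2% over all isolated CpGs. Without promoter CpGs the hepatocyte median was 68.6% (n = 14), against 86.0% for all isolated CpGs outside promoters. The CpG near Fga, a chain of fibrinogen, was at 10.2% (0% to 21.1% over 37 mice). Those upstream of Apoh, a plasma glycoprotein, were at 14.9% and 21.5%, a pair in the promoter of Asgr1, the hepatic asialoglycoprotein receptor, at 34.6% and 36.03%, and a pair at Pck1, the gluconeogenic enzyme, at 31.4% and 36.2%. Hnf4a, a regulator of hepatocyte genes, varied along its introns from 20.6% and 34.4% to 68.5% and 86.4%. A pair in Glul, glutamine synthetase of pericentral hepatocytes, where the annotation also has 5830403L16Rik, stood high at 94.4% and 95.1%.

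Genes of cholesterol and fatty acid metabolism had 65 isolated CpGs in 29 of 57 genes, with a median of 61.9%, and 18 were below 20%. Cpt1a, which takes fatty acids into mitochondria, and Abca1, the cholesterol exporter, each had an intronic CpG, less than 1000 bp from a start, with 0 of 1017 reads methylated over 39 mice and 0 of 1115 over 40, which allows up to 0.295% and 0.269% by counting error (3 reads of the total). Nr1h3, the oxysterol receptor, had a promoter CpG at 0.366%. The cytochrome P450 and conjugation genes had 11 CpGs with a median of 81.8%, from 19.4% at Por, the reductase that feeds electrons to the P450s, to 95.1% at Cyp39a1, with a pair in Cyp2e1 at 70.3% and 71.1%.

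Of the other lists, immune cell genes had 61 CpGs with a median of 77.5%, from 5.63% at Lck, a kinase of T cells, to 96.0% at Csf1r, the macrophage growth factor receptor. Endothelial and stellate cell genes had 68 with a median of 81.3%, from 4.63% at Gata4 to 97.7% at Vwf. Neuronal and synaptic genes had 348 with a median of 83.7%, from 0.299% at Ntm to 98.9% at Ank3, and striated muscle genes 99 with a median of 86.1%, from 0.232% at Tnnc1 to 97.2% at Pygm. Housekeeping genes had 19 with a median of 88.6%, from 0.321% at Psmc1 to 97.7% at Polr2a. Olfactory and vomeronasal receptor genes, silent in liver, had 57 with a median of 87.3%, from 6.86% at Olfr56 to 96.7% at Vmn2r18. The per-mouse mean over the hepatocyte list ranged from 46.1% to 61.7%, below that over the olfactory list in every mouse (75.1% to 83.8%), which is a description of lists chosen with earlier results known.

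**Figure D3:**
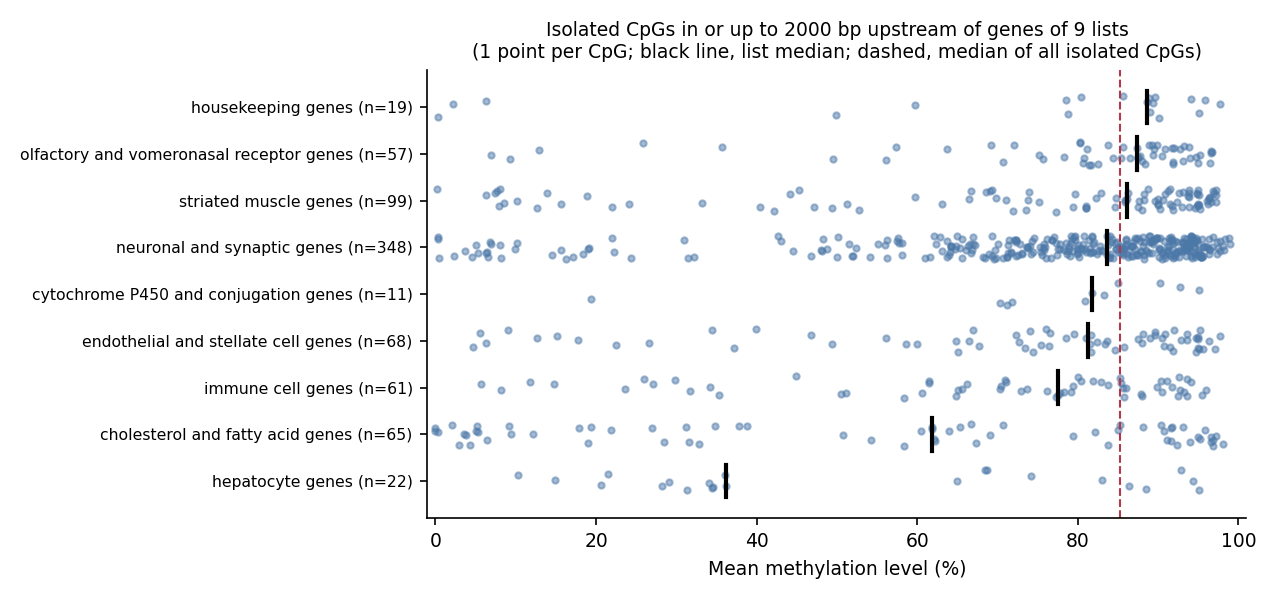
Mean methylation level (x axis, percent) of isolated CpGs in or up to 2000 bp upstream of genes of 9 lists (1 point per CpG; black line, list median; dashed line, the median of all isolated CpGs, 85.2%). The hepatocyte list is centred at 36.1% and the cholesterol and fatty acid list at 61.9%, left of the other 7 lists.

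Where both listed rows of a bin passed, they could be compared with each other. There were 10932 such pairs, with a median absolute difference of 5.43 percentage points. The 52 pairs that were both strands of 1 CpG differed by a median of 1.56 points. The 7964 pairs on the same strand up to 50 bp apart, which 1 read can span, differed by 5.11 points and had r = 0.91 across pairs, while the 2543 pairs at opposite ends of 1 MspI fragment differed by 6.45 points and had r = 0.78. These correlations are over sites of the same mice and carry no test. A difference of over 50 points was seen in 29 of the 7964 same-strand pairs, 29 of the 2543 pairs at fragment ends and 9 of the 373 other pairs. It was thus a larger share of the last 2 kinds than of the same-strand pairs. Of the 29 same-strand pairs, 4 had a median depth of 50 or more at both CpGs, against 7 of the other 7935 same-strand pairs.

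The 4 largest differences lay between CpGs 5 to 49 bp apart. On chromosome X, in an intron of 4930468A15Rik, a CpG was at 90.2% (81% to 94.8% over the mice) and the next, 20 bp further on the same strand, at 0.152% (0% to 0.995%), at median depths of 442.5 and 443 reads, against a median of 22 for the group. In an intron of Heatr7b1 on chromosome 1, CpGs 5 bp apart were at 85.6% (78.1% to 95.1%) and 0.410% (0% to 2.22%), at 97 reads each. Intergenic pairs near Ttll11 on chromosome 2 and on chromosome 9 were at 84.9% and 0.879%, and at 90.7% and 7.52%. These 4 pairs were picked for the size of their difference, so the gap between their low and high members follows from the choice. Why so many reads fell on the pair of chromosome X was not tested. The sequences are shown because both CpGs, in capitals, are in 1 read.
chrX:73843881-73843942, plus strand, 90.2% then 0.152%: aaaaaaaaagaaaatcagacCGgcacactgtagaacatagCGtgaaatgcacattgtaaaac
chr1:90143455-90143501, minus strand, 0.410% then 85.6%: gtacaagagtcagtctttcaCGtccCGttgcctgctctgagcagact
chr2:35839195-35839285, plus strand, 84.9% then 0.879%: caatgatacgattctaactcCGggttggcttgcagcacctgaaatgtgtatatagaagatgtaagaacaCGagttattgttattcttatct
chr9:3960484-3960571, plus strand, 90.7% then 7.52%: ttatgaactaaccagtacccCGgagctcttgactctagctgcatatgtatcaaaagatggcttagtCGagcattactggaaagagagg

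Most of the spread between mice of a group was the size of counting error. For values from 20 to 49 reads, isolated CpGs at 20% to 80% had a root mean square deviation of 10.7 percentage points from their group mean, where binomial sampling of the reads alone gives 8.75, and those at 80% or more had 6.38 against 5.44. With 50 or more reads the spread was 8.32 against 6.02 and 4.89 against 3.77. Bins of 3 to 9 rows had nearly the same values at 20 to 49 reads, 10.6 against 8.77 and 6.11 against 5.20.

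Over all isolated CpGs the groups lay within 1 percentage point of each other. The mean was 73.4% ± 0.325 in LF/LF, 73.4% ± 0.556 in LF/HF, 73.9% ± 0.437 in HF/LF and 73.1% ± 0.724 in HF/HF (SD, n = 10 each). The lowest, median and highest mouse were at 73.0%, 73.3% and 74.0% in LF/LF, 72.4%, 73.6% and 74.1% in LF/HF, 73.2%, 74.0% and 74.6% in HF/LF, and 71.5%, 73.1% and 73.9% in HF/HF. HF/LF was the highest group and HF/HF the lowest, and the ranges of all groups overlapped.

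Post-weaning HF diet went with lower methylation in offspring of HF dams. HF/HF was below HF/LF by 0.839 ± 0.268 points (SE; permutation test, p = 0.00345, adjusted p = 0.0138 over 4 comparisons). The difference did not pass over CpGs with 20 reads in all mice (-0.598, adjusted p = 0.322) or without MspI-site CpGs (-0.484, adjusted p = 0.0688). In offspring of LF dams the corresponding difference was 0.0261 ± 0.204 points (p = 0.901). Maternal HF diet went with higher methylation in LF-fed offspring, by 0.502 ± 0.172 points (p = 0.0110, adjusted p = 0.0219), and the difference in HF-fed offspring was -0.363 ± 0.289 (p = 0.227), and -0.184 without the HF/HF mouse with the most reads. Both called differences share the HF/LF group. The difference between the maternal effects in HF-fed and LF-fed offspring was -0.865 points (permutation of maternal labels within each post-weaning diet, p = 0.0116). By the same test it was -0.549 in bins of 3 to 9 rows (p = 0.00855) and -0.134 in bins of 10 or more (p = 0.224). The maternal difference did not pass with pooled reads (0.371, adjusted p = 0.161), without MspI-site CpGs (0.329, adjusted p = 0.193) or over CpGs with 20 reads in all mice (0.431, adjusted p = 0.363). Without MspI-site CpGs the difference between maternal effects was -0.419 (p = 0.0990).

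The fall in HF/HF against HF/LF passed at middle levels. At 20% to 80% (1790 CpGs) it was -1.44 ± 0.463 points (p = 0.00126, adjusted p = 0.0151 over 12 comparisons), but -0.417 over the 8 of these CpGs with 20 reads in all mice (adjusted p = 0.680) and -1.04 without MspI-site CpGs (adjusted p = 0.0676). The difference at 80% or more (3352 CpGs) was -0.651 ± 0.257 (adjusted p = 0.0818), and that below 20% (528 CpGs) was 0.0222 ± 0.129 (adjusted p = 0.867). By annotation the fall passed in introns, at -0.951 ± 0.280, and in intergenic CpGs, at -0.888 ± 0.305 (adjusted p = 0.0275 and 0.0276 over 16 comparisons), while promoters were at -0.462 ± 0.231 and coding exons at -0.456 ± 0.2998 (adjusted p = 0.163 and 0.326). The maternal difference in LF-fed offspring passed in introns and intergenic CpGs too, at 0.506 ± 0.164 and 0.624 ± 0.197 (adjusted p = 0.0276 for both). Whether the classes differ from each other was not tested.

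The same comparisons were made in denser bins. In bins of 3 to 9 rows HF/HF was below HF/LF by 0.512 ± 0.151 points (adjusted p = 0.0118 over 8 comparisons), and in bins of 10 or more the difference was 0.00962 ± 0.0802. By level, the difference in bins of 3 to 9 was -1.12 ± 0.367 at 20% to 80% (permutation test, adjusted p = 0.0184) and -0.482 ± 0.194 at 80% or more (adjusted p = 0.0883). The fall at middle levels thus passed there too. The difference between isolated CpGs and bins of 3 to 9 within each mouse changed by -0.326 ± 0.123 between these groups (p = 0.0152, adjusted p = 0.105 over 12), and by -0.322 ± 0.164 when both were restricted to levels of 20% to 80% (adjusted p = 0.171). The maternal difference in LF-fed offspring was 0.263 ± 0.109 in bins of 3 to 9 (adjusted p = 0.115 over 8) and 0.0277 ± 0.0611 in bins of 10 or more (adjusted p = 0.883), and isolated CpGs exceeded bins of 3 to 9 by 0.239 ± 0.0904 more in HF/LF than in LF/LF (p = 0.0175, adjusted p = 0.105 over 12). No difference from bins of 3 to 9 passed adjustment.

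The fall was also taken by position in the read and without 1 deep library. CpGs of the MspI site at the start of the read differed by -0.930 ± 0.301 between HF/HF and HF/LF (adjusted p = 0.0443 over 12 comparisons) and CpGs further in the read by -0.482 ± 0.185 (adjusted p = 0.0785), and the difference of these differences was -0.448 ± 0.212 (p = 0.0467, adjusted p = 0.140). The HF/HF mouse with the most reads, 1926420, was also the lowest of all 40 at 71.5%, and without it the difference was -0.659 (adjusted p = 0.0219). Reads at isolated CpGs averaged 855730 in LF/LF, 874639 in LF/HF, 1050910 in HF/LF and 906423 in HF/HF. Their part in the result was not tested.

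**Figure D4:**
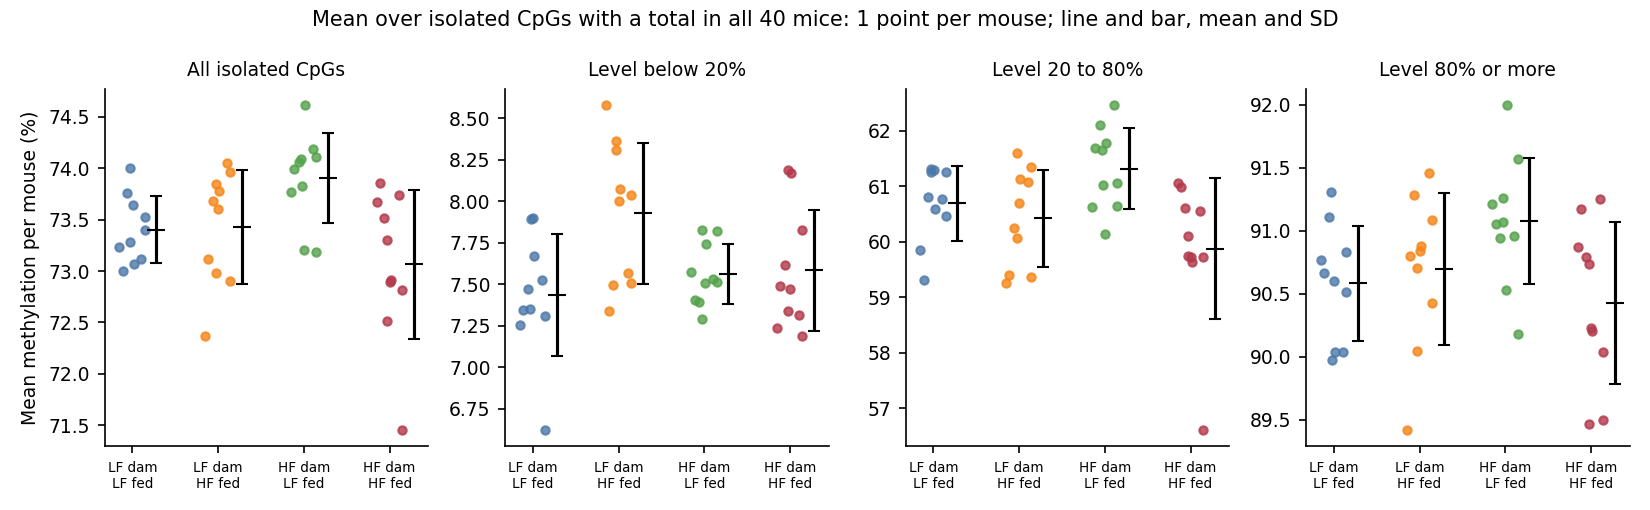
Mean methylation per mouse (y axis, percent; each panel has its own range and does not start at 0) over isolated CpGs with a total in all 40 mice, for all and for 3 classes of level, by dam and offspring diet (1 point per mouse; line and bar, mean and SD). HF/LF is the highest group at 73.9% and HF/HF the lowest at 73.1% over all, with overlapping ranges, and 1 HF/HF mouse stands apart at 56.6% in the panel of 20% to 80%.

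CpG by CpG, 3 isolated CpGs passed adjustment over all CpGs in the comparisons of diets. Two-sided Student's t-tests were run on those of the 262317 CpGs that had variance, 238168 to 242393 in the 4 comparisons. Each comparison was adjusted over all CpGs tested in it by the Benjamini-Hochberg method. For maternal diet, 0 of 39139 isolated CpGs passed an FDR of 5% in HF-fed offspring (background 0% of all CpGs tested), and 0 of 39142 in LF-fed offspring (background 0%), with smallest adjusted p-values of 0.822 and 0.818. For post-weaning diet, 1 of 39117 passed in offspring of LF dams (background 0.00084%) and 2 of 39161 in offspring of HF dams (background 0.00124%). For the interaction of both diets 0 of 39208 passed (background 0%), with a smallest adjusted p of 0.868. The exact Wilcoxon rank-sum test and limma on log2 ratios each called 0 isolated CpGs at an FDR of 5% in all 4 comparisons, with 1833 to 2077 and 2305 to 2725 of them at an unadjusted p below 0.05. The smallest exact Wilcoxon p with 10 mice against 10 is 1.08e-05, so that its count of 0 was nearly fixed by the group sizes.

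At an unadjusted p below 0.05 (Student's t-test) the directions followed the mouse means. These means average part of the same CpGs, so the match is not a separate result. Of the isolated CpGs tested, 5.04% and 5.32% had such a p for maternal diet in HF-fed and LF-fed offspring. For post-weaning diet it was 5.35% with LF dams and 5.70% with HF dams, and for the interaction 5.60%. These shares are near what a threshold of 0.05 gives by itself. In HF-fed offspring 753 isolated CpGs were higher with HF dams and 1219 lower (1.92% and 3.11% of those tested, against 1.52% and 2.19% of all CpGs), and in LF-fed offspring 1360 were higher and 724 lower (3.47% and 1.85%, against 2.39% and 1.6%). Of the post-weaning comparisons, that in offspring of LF dams had 1082 higher and 1011 lower with HF diet (2.77% and 2.58%, against 2.22% and 1.81%), and that in offspring of HF dams 615 higher and 1619 lower (1.57% and 4.13%, against 1.46% and 2.6%). The interaction had 689 positive and 1508 negative (1.76% and 3.85%, against 1.56% and 2.61%). The shares over all CpGs include the many near 0%. At 20% to 80% methylation 5.42% to 6.96% of isolated CpGs had such a p in the 4 comparisons, against 5.09% to 6.41% in bins of 3 to 9. In offspring of HF dams the median difference over all isolated CpGs was -0.698 points, and 96.9% were within 10 points of 0.

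The CpG of Phf20, a reader protein of a histone acetyltransferase complex, lies in its intron at chr2:156049854, 751 bp from a start and alone within 100 bp. Its levels ran from 62.1% over a median of 70.8% to 75.8% in HF/LF and from 41.7% over 50% to 60.7% in HF/HF, so these groups did not overlap. In LF/LF they ran from 36% to 68.8% and in LF/HF from 28.6% to 70.4%. It fell by 19.97 ± 2.39 points with the HF diet in offspring of HF dams (SE, n = 10 and 10; Student's t-test across all CpGs, adjusted p = 0.0218), while the difference in offspring of LF dams was -3.91 (adjusted p = 0.851). The interaction was -16.1 points (p = 0.00740, adjusted p = 0.868). Its sequence is shown with that of the called CpG on chromosome 19. Both lie inside an MspI site at the start of the read, as does the called CpG of Tmem120b described below.
chr2:156049824-156049884, plus strand, intron of Phf20: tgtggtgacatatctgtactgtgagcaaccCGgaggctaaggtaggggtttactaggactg
chr19:26497787-26497847, minus strand, intergenic: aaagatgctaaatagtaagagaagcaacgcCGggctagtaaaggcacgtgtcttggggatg

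The CpG of Tmem120b, a membrane protein, lies in an untranslated exon at chr5:123553851. Its levels ran from 56.3% over 66.3% to 77.4% in HF/LF and from 37.5% over 46.2% to 48.7% in HF/HF, again without overlap, and widely in LF/LF (50% to 90%) and LF/HF (27.8% to 78.6%). It fell by 22.2 ± 2.63 points (SE) in offspring of HF dams, where 1 HF/HF mouse had no total (adjusted p = 0.0218), with an interaction of -14.7 points (p = 0.0536). The intergenic CpG at chr19:26497817, 162834 bp from the nearest start, was at 85.7%, 90.9% and 92.9% (lowest, median and highest) in LF/LF and 95.5%, 100% and 100% in LF/HF. It rose by 8.16 ± 0.929 points (SE) in offspring of LF dams, where 1 LF/LF mouse had no total (adjusted p = 0.0119), and the difference in offspring of HF dams was -1.78 points (p = 0.574).

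In all 3 calls the mice within the groups compared were closer together than binomial sampling of their reads gives. In HF/HF the Tmem120b CpG had an SD of 3.80 where binomial sampling of its 13 to 39 reads gives 10.9. The Phf20 CpG had 4.13 against 8.51 in HF/LF and 6.33 against 11.2 in HF/HF, and the chromosome 19 CpG 2.18 against 7.03 in LF/LF. Over all isolated CpGs and groups the median ratio of the SD to its sampling value was 1.08, and it was below 0.5 in 0.519% of 156042 cases. By the exact Wilcoxon test the 3 CpGs had p = 1.08e-05, 2.17e-05 and 2.17e-05. These are the smallest p-values the test can give at these group sizes, and no single CpG could pass adjustment over all CpGs with them. By limma on log2 ratios their adjusted p-values were 0.576, 0.576 and 0.0979. The Phf20 and the Tmem120b call were each lost in 10 of 20 fits that left out 1 mouse, with differences of -21.1 to -19.0 and -23.3 to -20.9 points and adjusted p-values up to 0.0643 and 0.0772, and the call on chromosome 19 in 0 of 20.

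**Figure D5:**
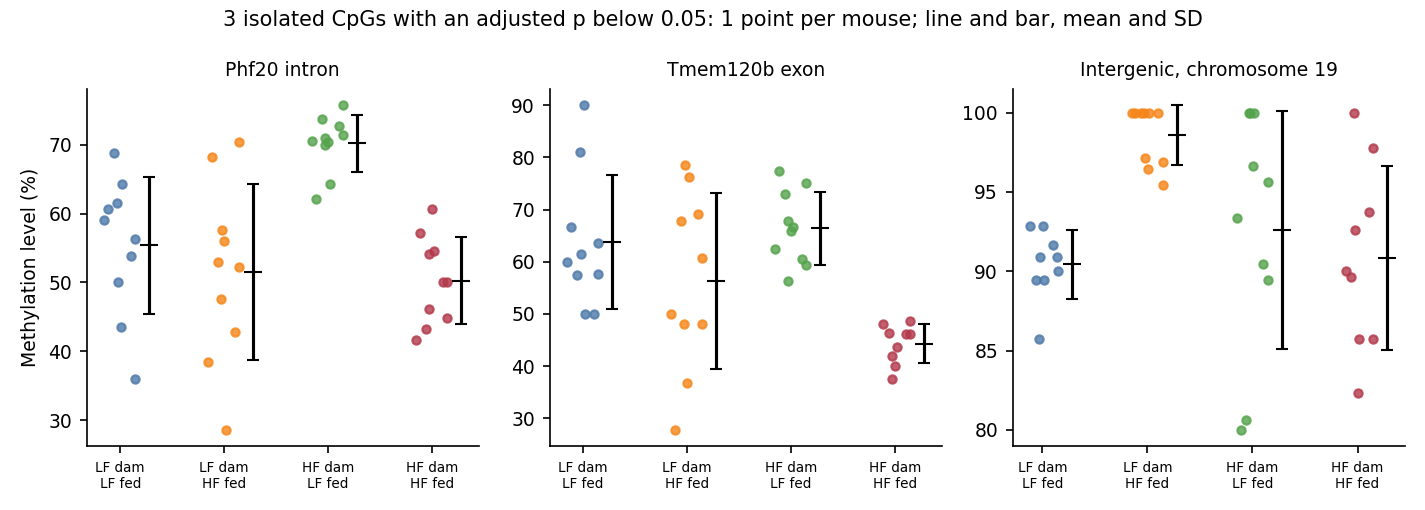
Methylation level per mouse (y axis, percent; each panel has its own range) of the 3 isolated CpGs with an adjusted p below 0.05, by dam and offspring diet (1 point per mouse; line and bar, mean and SD). HF/LF and HF/HF do not overlap in Phf20 and Tmem120b, LF/LF and LF/HF do not overlap at the chromosome 19 CpG, and the other groups spread more widely.

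The next CpGs by p-value did not pass. In offspring of HF dams, a CpG 1468 bp from the start of Chpf2, a chondroitin polymerase, was at 72.8% ± 6.36 in HF/HF and 86.2% ± 3.25 in HF/LF (n = 10 each; Student's t-test across all CpGs, adjusted p = 0.346). The largest fall in this comparison was at the promoter of Atg2a, a lipid transfer protein of autophagy, at 26.0% ± 9.58 against 54.2% ± 16.4. The largest rise was 22 points near Bhlha9 (79.4% against 57.4%), and both had an adjusted p of 0.820. In offspring of LF dams, a CpG at chr19:22115408, 98201 bp from Trpm3, was at 29.0% ± 5.05 in LF/HF and 15.95% ± 4.84 in LF/LF (adjusted p = 0.553).

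For maternal diet in LF-fed offspring the smallest p-values included a coding CpG of Popdc2, a cAMP-binding membrane protein of muscle (89.96% ± 5.16 in HF/LF, 99.3% ± 1.59 in LF/LF) and an intronic CpG of Aars, the alanyl-tRNA synthetase (91.6% ± 4.03 and 98.7% ± 2.26). Both were lower in HF/LF, against the direction of the mouse mean, and had an adjusted p of 0.818 (Student's t-test across all CpGs). In HF-fed offspring they were intergenic CpGs on chromosomes 1 and 11 and an intronic CpG of Gm20388. These were higher in HF/HF, by 9.85, 15.0 and 14.3 points (adjusted p = 0.822). The largest differences in either direction in the 2 maternal comparisons were between 20.7 and 23.7 points in size, at CpGs with a median of 15.5 to 19.5 reads.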

How the data were processed

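The RRBS libraries came from DNA of 40 livers. The authors cut it with MspI, size-selected fragments, treated the libraries with bisulfite, read 50 bp from 1 end and aligned them with Bismark to mm9, per the submitters' processing notes and the study's methods. The deposited values are a count of methylated reads and a count of all reads per CpG and mouse, and their fraction, with no normalization. The deposited fraction equalled the ratio of both counts in every case, and total counts begin at 10 reads. There were 0 columns of no mapped mouse, and 84198 methylated counts without a total at isolated CpGs were not used.

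Groups were taken from the labels. Replicate numbers follow accession order and pair nothing. Percent methylation was tested on the whole table by Student's t-test, as in the study, and mouse means by permutation with 100000 resamples. Alternatives were the exact Wilcoxon test, limma 3.58.1 (R 4.3.3) on log2 ratios with 0.5 added, 20 reads, all 40 mice, levels of 5% to 95%, autosomes, bins shifted by 500 bp, single-row bins, pooled reads and read position. Scripts (Python 3.11.15, scipy 1.17.1) were tested on simulated data. The isolated CpGs, gene lists and motifs were chosen with earlier results of these data known. Named CpGs were the 3 smallest p-values and the largest difference each way per comparison, any at an FDR below 5%, the 5 deepest single CpGs at low and middle levels over 10000 bp from a start, and at 95% or more anywhere, list extremes and the most discordant pairs; further CpGs of the liver lists and pairs were added after their values were seen. CpGs without variance were not tested. Intervals from read numbers cover counting error only. Repeats were not analysed. Some CpGs that this rule names are not reported here.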

Additional observations from a re-analysis of the deposited data

Results flagged for a closer look

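Of 36 groups of mice tested for a mouse far from the others, 6 had one, where chance gives about 1 in 20. One LF/LF mouse had a mean of 6.62% over isolated CpGs below 20%, under all others of its group. One HF/HF mouse had a mean of 56.6% over CpGs at 20% to 80% and was also far above its group in reads, at 1926420. One LF/HF mouse lacked 33.1% of the isolated CpGs and one HF/LF mouse 6.997%, far from their groups. At chr19:26497817 one LF/LF mouse, at 85.7%, was below the others.

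The maternal difference in HF-fed offspring minus that in LF-fed offspring was -0.865 points over all isolated CpGs (permutation test, p = 0.0116), -0.471 below 20% (p = 0.0391), -1.17 at 20% to 80% (p = 0.0435) and -0.762 at 80% or more (p = 0.0352), the last 3 without adjustment. In bins of 3 to 9 rows it was -0.549 (p = 0.00855), and in bins of 10 or more -0.134 (p = 0.224). At 84198 pairs of an isolated CpG and a mouse the table lists a methylated count without a total, so no level could be formed.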

How the results depend on the processing

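The higher level of isolated CpGs than of denser bins held under every alternative run. The mean of 73.5% was 79.3% over the 31 CpGs with 20 reads in all mice, 74.9% in single-row bins and 68.96% without CpGs of the MspI site. The fall in HF/HF against HF/LF was not called over those 31 CpGs (-0.598, and -0.417 at middle levels) or without MspI-site CpGs (-0.484 and -1.04), nor was the maternal difference in LF-fed offspring (0.431 and 0.329, and 0.371 with pooled reads) or the difference of maternal effects (-1.07 and -0.419). Both settings keep fewer CpGs, and the cause was not tested. Leaving out each mouse in turn lost none of the 3 calls over all isolated CpGs (-0.926 to -0.659, 0.423 to 0.582 and -0.983 to -0.686).

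Differences that had not passed changed direction. Post-weaning diet in offspring of LF dams was -0.0131 in single-row bins, -0.0651 without MspI-site CpGs and -0.0433 to 0.144 with each mouse left out. Below 20%, post-weaning diet in offspring of HF dams was -0.0771 with each mouse over its own CpGs, -0.111 in shifted bins, -0.478 in single-row bins (adjusted p = 0.04998, past the threshold), -0.0284 without MspI-site CpGs, -0.0428 without the mouse with the fewest reads and -0.0448 to 0.0662 with each mouse left out, and maternal diet in LF-fed offspring was -0.0814 at 20 reads. At 20% to 80% the latter was -1.30 at 20 reads. At 80% or more, without MspI-site CpGs, maternal diet in HF-fed offspring was 0.0756 and post-weaning diet in offspring of LF dams -0.219.

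Some differences passed only under an alternative. At 80% or more, post-weaning diet in offspring of HF dams was -0.768 with each mouse over its own CpGs, -0.803 in single-row bins and -0.750 to -0.544 with each mouse left out, passing in 3 of 20 fits. Maternal diet in LF-fed offspring was there 0.391 to 0.593, passing in 1 of 20. Below 20%, maternal diet in HF-fed offspring was -0.782 in single-row bins, and post-weaning diet in offspring of LF dams 0.403 to 0.558 with each mouse left out, passing in 4 of 20.

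CpGs at an unadjusted p below 0.05 numbered, in the order maternal HF-fed, maternal LF-fed, post-weaning LF dams and post-weaning HF dams, 20, 14, 26 and 12 of 334 at 20 reads, 273, 309, 278 and 319 with a total in all mice, and 738, 806, 780 and 885 in single-row bins, where fewer CpGs were tested. At an FDR of 5% the single call in offspring of LF dams was 0 by Wilcoxon, limma, 20 reads, all mice and single-row bins, and 1 to 2 with each mouse left out. The 2 calls in offspring of HF dams were 0 by Wilcoxon, limma and 20 reads, 1 with all mice and in single-row bins, and 0 to 2 with each mouse left out. By construction the CpGs called are not in the set at 20 reads, only Phf20 is in those of all mice and single-row bins, and Wilcoxon could not pass a single CpG, so limma and the omitted mice alone bear on these calls. Both the Phf20 and Tmem120b calls were lost without HF/HF mouse 2, 4, 5, 6, 7 or 10 or HF/LF mouse 4, 5 or 10, Phf20 also without HF/LF mouse 6 and Tmem120b without HF/LF mouse 9, while the differences stayed at -21.1 to -19.0 and -23.3 to -20.9 points over all omissions. Depth limits single CpGs, with 22 reads in the median. The choice to leave out each mouse and the one with most reads was made after seeing the data.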
